A study of Mus musculus with 4 samples.

Results

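The 10 genes described here are members of the mouse circadian clock and its direct output: Arntl, Per1, Per2, Per3, Nr1d1, Nr1d2, Dbp, Tef, Nfil3 and Ciart. They were chosen by name, as every non-control probe whose RefSeq transcript belongs to a listed gene, which gave 20 of the 56605 probes and 10 of the 23462 named genes on the array. Male mice gave the whole-liver RNA, which was labelled in 1 colour (Cy5) and read on 4 Agilent arrays, 1 for each group. The control array holds liver of naturally aged mice, the diabetic array liver of an aged type 2 diabetes model, the metformin array liver of that model given metformin, and the combination array liver of that model given metformin with astragalus polysaccharide. Metformin is a drug that lowers blood glucose, and the polysaccharide comes from the root of Astragalus. Sample titles carry 60 d without saying what the time counts from. Strain, age, the way diabetes was induced, doses and the number of mice behind an array are not stated in these sources. There are no replicates, so each difference is one between single arrays and no p-value is given.

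The clock of a liver cell is a loop of transcription that runs through the day. BMAL1, the product of Arntl, pairs with CLOCK on E-box sequences and drives the Per, Cry, Nr1d1, Nr1d2, Dbp, Tef and Ciart genes. The PER, CRY and CIART proteins repress that pair, and the REV-ERB receptors made from Nr1d1 and Nr1d2 repress Arntl and Nfil3 through ROR elements. DBP and TEF activate D-box genes, which NFIL3 represses, and in liver these outputs time the handling of lipids, bile acids and foreign compounds. Levels of most of these transcripts swing with the time of day in mouse liver. The time of day at which the livers were taken is not stated there either, so time of day and group cannot be told apart in any difference below.

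Of the 10 genes, Nfil3, Ciart, Arntl, Per3, Per2 and Tef were at least 2-fold apart in 1 or more comparisons of arrays. Among all 12702 genes above background on the 4 arrays, 28.8% spanned 2-fold or more. Tef passed at the edge, at 2.07-fold for combination against metformin and 2.06-fold for metformin against control. Each of these Tef calls held in 4 of 11 alternative settings. Nfil3 was 3.21-fold lower on the diabetic than on the control array and 5.64-fold lower on the combination array than on the control. Ciart was 4.50-fold higher on the combination than on the diabetic array. Arntl was 3.66-fold higher on the diabetic than on the control array and 2.26-fold lower on the combination than on the diabetic array. Per3 was 3.65-fold lower on the metformin than on the diabetic array. Dbp and Tef, the D-box activators, were lowest on the metformin array on each probe measured there. Per3, Nr1d1 and Nr1d2 were lowest there too, as was Per1 by less than the software error. Averaged over a gene's probes, Per1, Nr1d1, Nr1d2 and Dbp spanned less than 2-fold over the 4 arrays. The Dbp probes taken singly spanned 2.05-fold and 2.02-fold.

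Levels are log2 processed signals relative to the 75th percentile of the same array, so 0 is that percentile and 1 unit is a 2-fold difference. A level belongs to its probe and is compared across arrays, not between probes. The scanner software gives an error for each spot, which came to 0.12 to 0.30 log2 units for member spots well above background. Over probes spotted repeatedly, the median SD of a spot was 0.06 to 0.07 on each array. Neither error covers differences between mice, RNA preparations or hybridizations. Each member probe had 1 spot on an array. Of these 80 member spots, 5 were marked as outliers by the software and left out, and 10 were not well above background. All 10 genes had a probe above background on the 4 arrays, although the one for Arntl was marked as an outlier on the metformin array. Pairwise correlations of the arrays ran from 0.950 to 0.965 over 24363 probes.

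Hepatocyte markers were bright: 7 of the 8 listed markers on the array were free of outlier marks and above background on each array. Apoa1 and Cps1 lacked an unmarked spot on some array and were left out of the sum. The summed level of the other 6, in multiples of the 75th percentile signal, was 281.6 on the control, 220.0 on the diabetic, 168.1 on metformin and 231.4 on the combination array. Markers of other cell types also differed. The sum of 8 lymphocyte markers was 3.60, 1.14, 8.67 and 1.98 in the same order, with Cd79a below background on all arrays, and that of 9 exocrine pancreas genes was 169.6, 20.0, 40.2 and 10.95. Of 10 exocrine pancreas genes, 10 were above background on the control array and 3 on the combination array. Sums for Kupffer cell markers ran from 41.1 to 73.6, for endothelial markers from 16.8 to 26.2 and for stellate cell and fibroblast markers from 30.2 to 60.5. In whole liver RNA, fewer cells of a type and less RNA per cell cannot be told apart. The part of these cell type markers in the clock gene differences was not tested.

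The scale of an array moves the balance of all genes. With the 75th percentile of each array's own unflagged probes in place of the probes unflagged on all 4, the share of higher genes among those at least 2-fold apart went from 51.2% to 63.3% for diabetic against control. The same setting moved it from 40.8% to 19.3% for combination against diabetic, from 23.1% to 7.42% for combination against metformin, from 58.6% to 74.6% for metformin against control and from 43.8% to 32.1% for combination against control. Centring on the median moved it from 71.4% to 57.8% for metformin against diabetic and from 58.6% to 42.0% for metformin against control. A percentile over the probes above background throughout moved the latter to 75.9%.

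**Figure D1:**
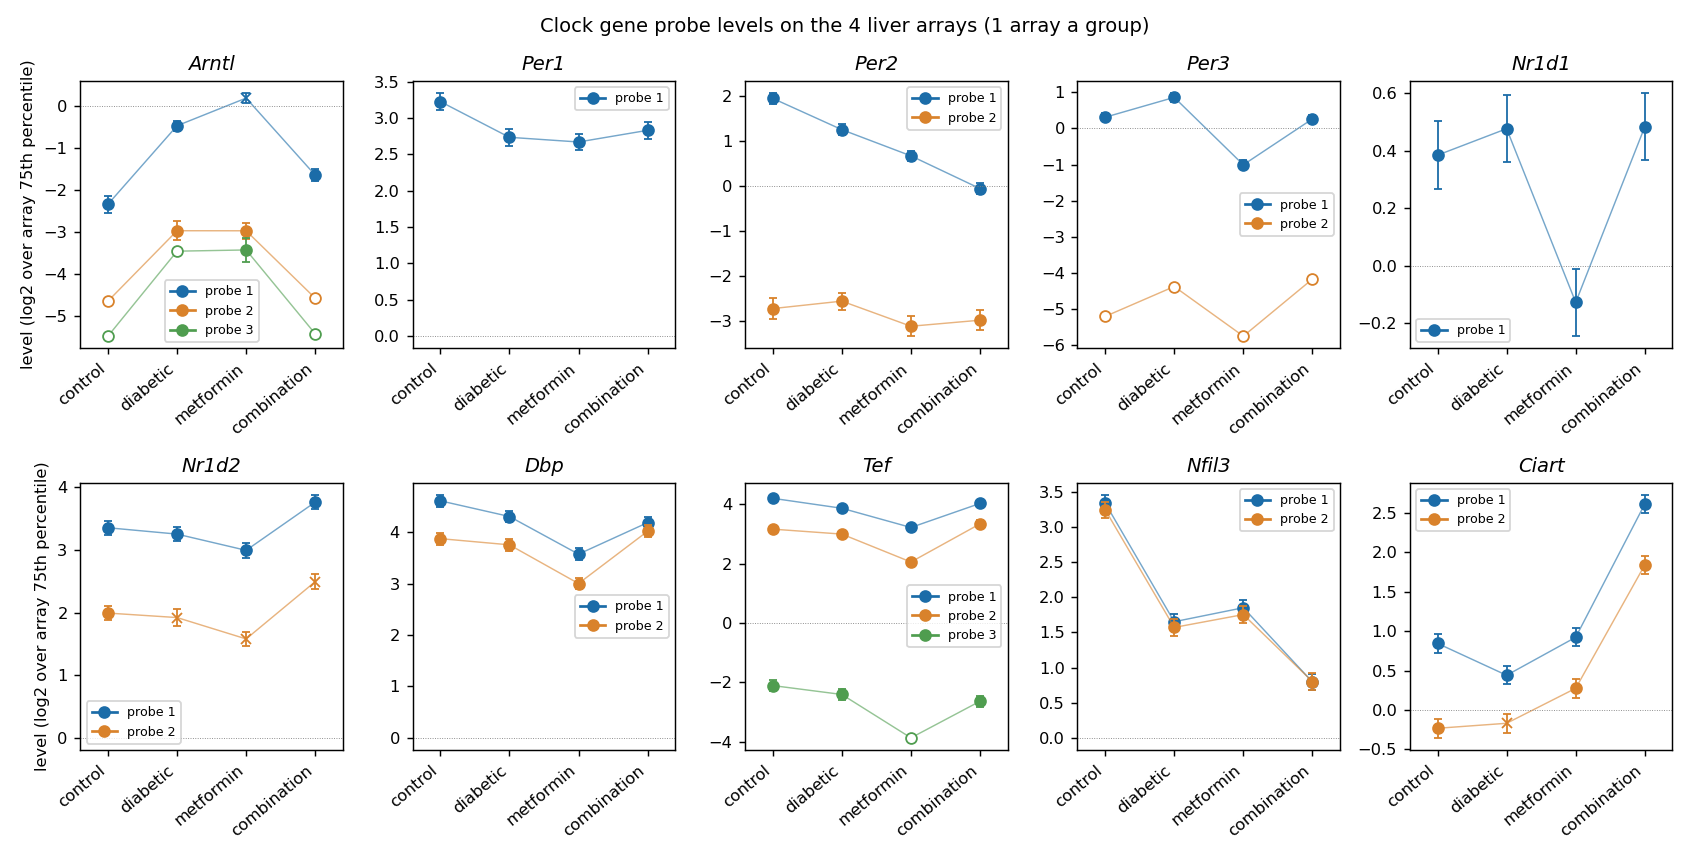
Level of each clock gene probe on the 4 arrays, in log2 units over the array's 75th percentile, with the scanner software's error as bars. Open circles were not well above background and crosses were marked as outliers. Both Nfil3 probes were highest on the control array at 3.34 and 3.25, and both Ciart probes were highest on the combination array at 2.61 and 1.84.

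Arntl encodes BMAL1, the activator without which the loop does not run. Its brightest probe stood at -2.33 on the control, -0.46 on the diabetic and -1.64 on the combination array. On the metformin array the spot was marked as an outlier and read 0.20. The diabetic array was thus 1.87 ± 0.24 above the control (software error of the difference), and the combination array lay between them. On the combination array Arntl was -1.18 ± 0.19 below the diabetic and 0.69 ± 0.25 above the control. A second probe, at -2.96 on both the diabetic and the metformin arrays, was not well above background on the control and combination arrays. It bounds Arntl at 1.26-fold higher or more on the diabetic than on the control array, and at 1.61-fold higher or more on the diabetic than on the combination array. The third probe was above background on the metformin array, at -3.42, and on no other. Metformin and diabetic arrays differed by 0.00 ± 0.30 on the second probe, while the flagged spot of the first would place metformin higher by 0.66. The first probe, where measured, and the bounds of the second thus put the diabetic array above the control and combination arrays. The third probe ranks neither of these pairs.

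Promoter windows are shown for Arntl and Nfil3, because both genes are known REV-ERB targets. Each window runs from 250 bases before to 50 bases after a transcript start on the gene's own strand (RefSeq, GRCm38.p6), and capitals mark the ROR element TAGGTCA searched on both strands.
Arntl promoter, chr7:113207261-113207560 (+ strand): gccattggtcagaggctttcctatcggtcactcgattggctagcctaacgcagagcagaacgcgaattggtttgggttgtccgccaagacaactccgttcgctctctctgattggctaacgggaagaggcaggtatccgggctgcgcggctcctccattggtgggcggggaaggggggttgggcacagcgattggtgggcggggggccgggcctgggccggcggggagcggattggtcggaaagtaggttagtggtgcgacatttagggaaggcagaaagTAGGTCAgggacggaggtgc
Nfil3 promoter, chr13:52980990-52981289 (- strand): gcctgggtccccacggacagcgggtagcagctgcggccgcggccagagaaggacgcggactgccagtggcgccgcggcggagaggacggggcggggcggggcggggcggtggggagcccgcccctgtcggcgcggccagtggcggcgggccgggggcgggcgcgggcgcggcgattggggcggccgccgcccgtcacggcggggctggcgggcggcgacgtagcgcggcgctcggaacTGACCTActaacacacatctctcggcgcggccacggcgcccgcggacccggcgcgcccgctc
The element begins at position 30 from the start in the Arntl window and at -12 in the Nfil3 window, where it is read on the opposite strand. A second Arntl window that starts upstream held none of the motifs searched. TAGGTCA occurred in 2.61% of 32851 promoter windows and in 2 of the 12 windows of members. These belonged to 2 of the 9 members with a window.

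Nfil3 encodes the repressor that competes with DBP and TEF for D-boxes. Its 2 probes read 3.34 and 3.25 on the control array, 1.65 and 1.57 on the diabetic, 1.85 and 1.75 on metformin and 0.79 and 0.80 on the combination array. The control array was the highest and the combination array the lowest on both. The diabetic array was below the control by -1.68 ± 0.12, the metformin array by -1.49 ± 0.12 and the combination array by -2.5 ± 0.12. Of 13845 genes measured on the control and combination arrays, 96 had a lower difference than Nfil3. Metformin differed from diabetic by 0.19 ± 0.12. The combination array was -1.0 ± 0.12 from the metformin array, at the edge of 2-fold, and -0.81 ± 0.12 from the diabetic.

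Arntl and Nfil3, which share a repressor, had different profiles. Against the control array the diabetic array was higher for Arntl and lower for Nfil3, whereas against the diabetic array the combination array was lower for both. Their repressor genes differed less. Nr1d1, which encodes REV-ERB alpha, read 0.38 on the control, 0.48 on the diabetic, -0.13 on metformin and 0.48 on the combination array. Metformin was the lowest, -0.60 ± 0.17 below diabetic, and the other arrays lay within 0.10 of one another. Nr1d2, which encodes REV-ERB beta, read 3.36, 3.25, 3.0 and 3.77 on its brighter probe in the same order. Combination was above metformin by 0.77 ± 0.16 and above diabetic by 0.51 ± 0.16. The dimmer Nr1d2 probe was marked as an outlier on 3 arrays, and its readings followed the same order.

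Of the repressors of the first loop, Per1, which light, stress hormones and other stimuli induce quickly, was the flattest of the 3 Per genes. Its probe read 3.22 on the control, 2.73 on the diabetic, 2.67 on metformin and 2.83 on the combination array. The control array was highest, by 0.39 to 0.56 with an error of 0.16, and the other arrays differed among themselves by no more than that error.

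Per2, whose protein holds CRY in the repressor complex, had 2 probes that disagreed. The bright probe read 1.95 on the control, 1.25 on the diabetic, 0.67 on metformin and -0.06 on the combination array, lower on each array in that order, with a 4.02-fold span. The dim probe read -2.73, -2.56, -3.12 and -2.98 and spanned 1.47-fold. It was near the floor, as the lowest levels above background were -3.30, -3.58, -3.83 and -3.65 in the same order. Averaged over both, Per2 was -1.13 ± 0.18 on the combination against the control array. On the bright probe alone that difference was -2.01 and that between the combination and diabetic arrays was -1.31, past 2-fold where the average of -0.87 was not.

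Per3, a period gene that the loop can run without, was read on 1 usable probe. It stood at 0.31 on the control, 0.86 on the diabetic, -1.01 on metformin and 0.27 on the combination array. Metformin was the lowest by a wide gap, -1.87 ± 0.17 against diabetic and -1.32 ± 0.17 against control. Of 13900 genes measured on the metformin and diabetic arrays, 69 had a lower difference. The combination array was above the metformin array by 1.27 ± 0.17 and -0.05 ± 0.17 from the control. The second Per3 probe was not well above background on any array.

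The Per3 promoter window is shown for its pair of D-box sequences. Capitals mark TTANGTAA, searched on both strands.
Per3 promoter, chr4:151044616-151044915 (- strand): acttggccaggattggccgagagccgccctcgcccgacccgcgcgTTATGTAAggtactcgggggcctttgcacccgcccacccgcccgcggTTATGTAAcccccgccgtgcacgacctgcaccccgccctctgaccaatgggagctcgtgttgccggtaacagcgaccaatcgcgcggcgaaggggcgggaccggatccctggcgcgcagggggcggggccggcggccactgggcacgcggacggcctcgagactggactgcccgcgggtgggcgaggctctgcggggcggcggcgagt
The D-boxes begin at positions -205 and -158 from the start. This motif occurred in 2.32% of promoter windows and in 1 of the 12 windows of members. Per3 alone among the 9 members with a window thus held it.

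Ciart encodes CHRONO, a repressor of the BMAL1 and CLOCK pair. Its brighter probe read 0.84 on the control, 0.44 on the diabetic, 0.92 on metformin and 2.61 on the combination array. The dimmer probe read -0.23, 0.28 and 1.84 on the control, metformin and combination arrays and was marked as an outlier on the diabetic. Both put the combination array well above the others. Combination was above diabetic by 2.17 ± 0.16, above metformin by 1.63 ± 0.12 and above control by 1.92 ± 0.12. Of 14108 genes measured on the combination and diabetic arrays, 43 had a higher difference, and of 14363 measured on combination and metformin, 77 did. Metformin against diabetic was 0.48 ± 0.16.

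The Ciart promoter window is shown for its E-boxes, the sequence that BMAL1 and CLOCK bind. Capitals mark CACGTG, which reads the same on both strands.
Ciart promoter, chr3:95882179-95882478 (- strand): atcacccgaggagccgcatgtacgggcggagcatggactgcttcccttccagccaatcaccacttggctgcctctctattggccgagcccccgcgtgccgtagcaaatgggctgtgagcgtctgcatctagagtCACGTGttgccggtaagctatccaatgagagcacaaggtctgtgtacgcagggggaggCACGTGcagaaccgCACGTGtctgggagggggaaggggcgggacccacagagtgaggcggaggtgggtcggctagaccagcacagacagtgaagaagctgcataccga
The E-boxes begin at positions -116, -58 and -44 from the start. CACGTG occurred in 7.15% of promoter windows and in 4 of the 12 windows of members. These belonged to 3 of the 9 members with a window, which were Per1, Tef and Ciart. A match describes these letters and shows no binding.

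Dbp and Tef encode PAR bZIP activators of D-box genes. Dbp read 4.61 and 3.87 on its 2 probes on the control array, 4.30 and 3.75 on the diabetic, 3.57 and 3.0 on metformin and 4.18 and 4.02 on the combination array. The metformin array was the lowest on both, and the probes placed either the control or the combination array highest. Metformin was -0.74 ± 0.12 from diabetic, and combination was 0.07 ± 0.12 from diabetic and 0.81 ± 0.12 above metformin. Tef has probes to a pair of transcripts. The brightest read 4.20 on the control, 3.86 on the diabetic, 3.22 on metformin and 4.03 on the combination array, and the second 3.16, 2.99, 2.05 and 3.34. Both had metformin lowest, and the third and dimmest Tef probe was above background on every array but metformin. Tef on metformin was -0.79 ± 0.12 from diabetic and -1.04 ± 0.12 from control, and the combination array was above metformin by 1.05 ± 0.12.

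The lower levels on the metformin array stood beside lower hepatocyte markers. From diabetic to metformin, 7 of 7 measured hepatocyte markers were lower with a median of -0.38, between -0.23 for Serpinc1 and -0.53 for Hpd. Dbp, Tef, Nr1d1, Per2 and Per3 lay below that range, at -0.74, -0.79, -0.60, -0.57 and -1.87, and Nr1d2 at -0.26 and Per1 at -0.06 did not. Nor did Arntl at -0.0015, Nfil3 at 0.19 and Ciart at 0.48. From control to metformin the 7 markers lay between -0.58 for Serpinc1 and -0.96 for Fgb. Dbp at -0.95 and Per2 at -0.84 fell within that range, Nr1d1 at -0.51, Nr1d2 at -0.36 and Per1 at -0.56 were closer to 0, and Tef at -1.04 and Per3 at -1.32 lay beyond it. Nfil3 at -1.49 also lay beyond it, and Ciart at 0.29 was above 0. From metformin to combination the 6 measured markers were 0.22 to 0.80 higher with a median of 0.42. Nr1d1 at 0.61 and Nr1d2 at 0.77 fell within that range. Dbp at 0.81 ± 0.12 was at its upper edge, with probes on either side at 0.61 and 1.02. Tef at 1.05, Per3 at 1.27 and Ciart at 1.63 lay above the range, and Per1 at 0.16, Per2 at -0.30 and Nfil3 at -1.0 below it. Lymphocyte markers went the other way, with 6 of 6 at least 2-fold higher on metformin than on diabetic and 5 of 6 at least 2-fold lower on combination than on metformin. Their part in the differences of the clock genes was not tested.

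**Figure D2:**
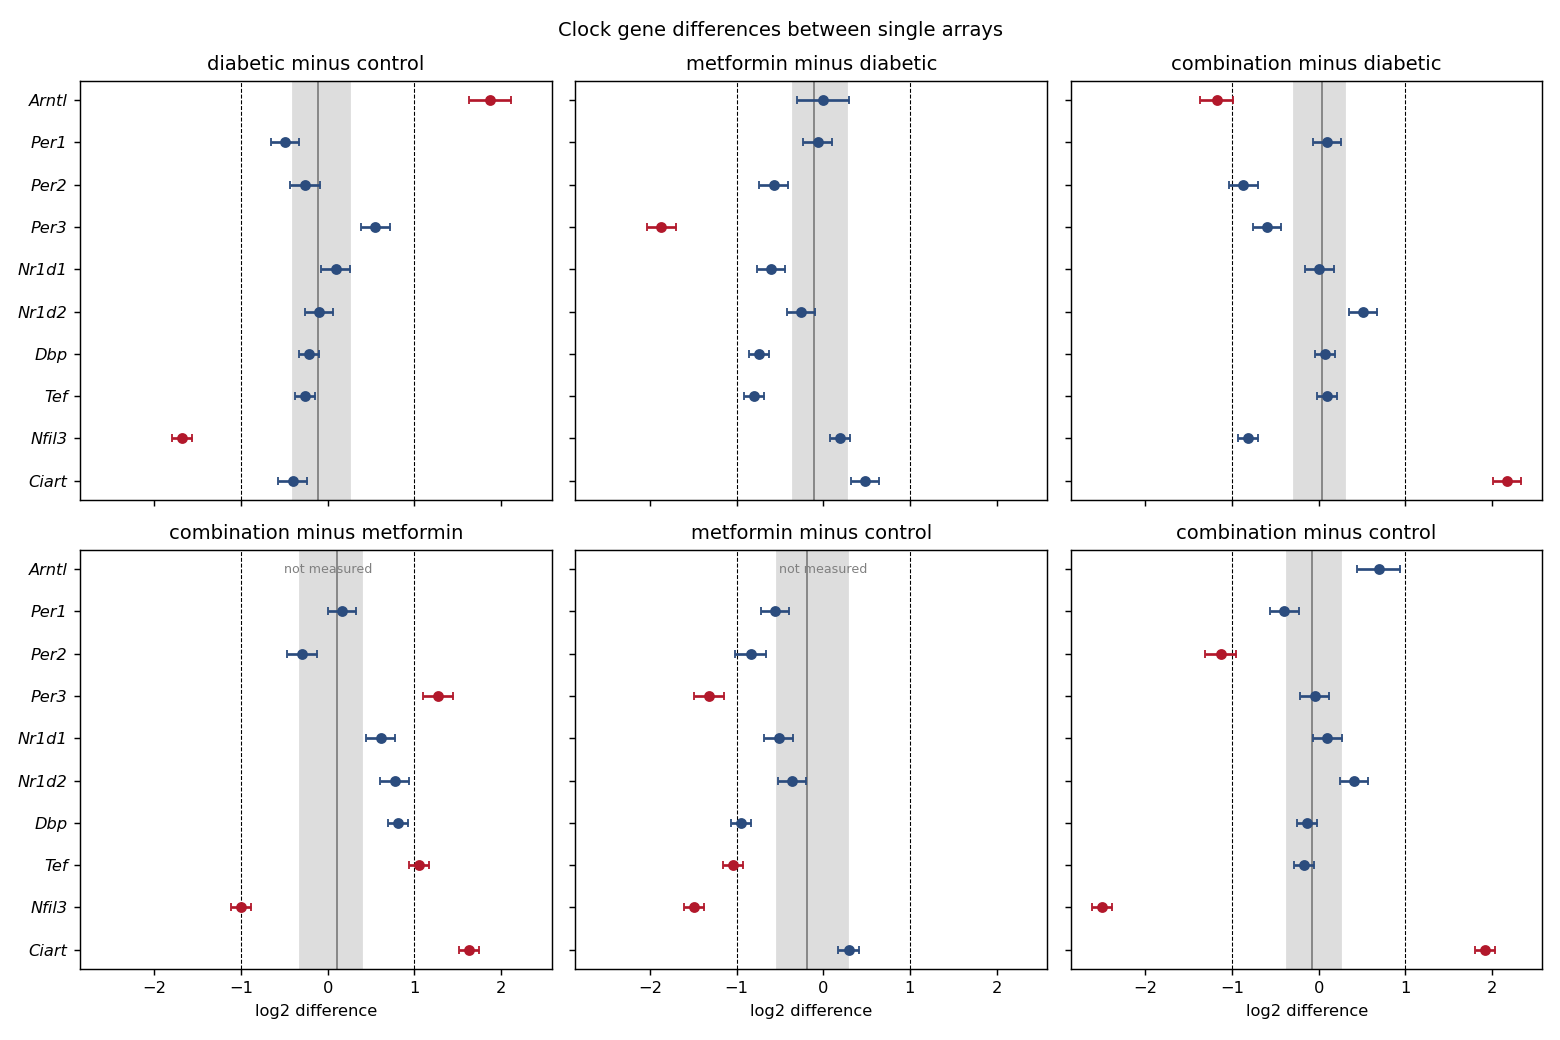
Log2 difference of each clock gene in the 6 comparisons of single arrays, with the scanner software's error as bars. Red points are at least 2-fold apart (dashed lines), the grey band spans the quartiles of all measured genes and the grey line is their median. Ciart at 2.17 and Arntl at -1.18 stand apart for combination against diabetic.

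Counted by comparison, few clock genes passed 2-fold. For diabetic against control, 1 of 10 was at least 2-fold higher (Arntl) and 1 lower (Nfil3), where 5.97% of 13475 genes were higher and 5.69% lower, and the median of the 10 was -0.24 beside -0.11 for all genes. For metformin against diabetic, 1 of 10 was lower (Per3) and none higher, against 3.54% and 8.82% of all genes. In that comparison 8 of the 10 lay below 0, with a median of -0.42 beside -0.11 for all 13900 genes. The 7 measured hepatocyte markers had a median of -0.38 there. For combination against diabetic, 1 was higher (Ciart) and 1 lower (Arntl), against 3.98% and 5.79% of all genes, with a median of 0.04 for both the 10 and all genes.

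For combination against metformin, of 9 measured, Per3, Tef and Ciart were at least 2-fold higher on combination, where 2.62% of 14363 genes were, and Nfil3 was lower, where 8.72% were. The median of the 9 was 0.77 beside 0.10 for all genes, with 7 above 0. Hepatocyte markers were higher here too, in 6 of 6 cases with a median of 0.42. Tef and Nfil3 sat at the edge of 2-fold, at 2.07-fold and 2.01-fold. The Tef call was lost in 7 of 11 alternative settings, with values down to 0.75, that of Nfil3 in 2 with values to -0.91, and that of Per3 in 1 at 0.98. With each array's own percentile 2 of the 9 were 2-fold apart here and 4 of 10 for combination against diabetic, so which comparison held more calls turned with the scaling.

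Against the control array, metformin had 3 of 9 measured genes at least 2-fold lower (Per3, Tef and Nfil3) and none higher, where 5.72% of 13506 genes were lower and 8.09% higher. The median was -0.84 beside -0.19 for all genes, and Ciart alone lay above 0. In this comparison 7 of 7 hepatocyte markers were lower too, with a median of -0.78. Tef was at the edge of 2-fold here too, and 7 of 11 alternatives ended the call, with values to -0.73. Per3 lost it at -0.93 without a filter on background. Combination had Ciart higher and Per2 and Nfil3 lower, 3 of 10 in all, where 4.6% of 13845 genes were higher and 5.9% lower, and the median was -0.09 beside -0.07. These comparisons share arrays, so like directions among them are not independent.

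Over the 4 arrays, 28.8% of 12702 genes above background on all of them spanned 2-fold or more, with a median span of 0.70. Nfil3 spanned 2.5, wider than all but 2.72% of genes, Ciart 2.17 (4.42% wider) and Per3 1.87 (7.25% wider). Per2 at 1.13 and Tef at 1.05 were exceeded by 22.9% and 26.4% of genes. Dbp spanned 0.95, Nr1d2 0.77, Nr1d1 0.61 and Per1 0.56, with 31.4%, 43.8%, 59.5% and 65.6% of genes wider. These spans average a gene's probes and are a description of the 4 arrays.

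The other genes of the core loop differed less than 2-fold in each comparison. Of 8 listed, 5 were measured for diabetic against control, and none was 2-fold apart. Clock, the partner of BMAL1, read 1.53 on the control, 2.37 on the diabetic, 2.27 on metformin and 1.97 on the combination array on its brightest probe. Cry2, a cryptochrome repressor, read 3.56 on the control, 2.71 on the diabetic, 2.73 on metformin and 3.38 on the combination array. The diabetic and metformin arrays were the lower pair. Cry1 differed from control by -0.34 on diabetic, -0.34 on metformin and 0.13 on combination. Rora encodes a receptor that activates through the elements at which REV-ERB represses. It was lower than control on all 3 diabetic-model arrays, by -0.70, -0.95 and -0.46. Npas2 was not well above background on any array.

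Genes for kinases and ubiquitin ligase parts that set the stability of PER and CRY were all measured. Btrc, which takes part in PER breakdown, was 1.39 higher on the diabetic than on the control array, but its 2 probes disagreed in size. Fbxl21, which encodes a CRY ligase part, was -1.36 on combination against diabetic and -1.19 against metformin, and low on both probes. Csnk1d, a PER kinase, was -0.60 on diabetic against control and 0.70 on combination against diabetic when averaged over its probes. Its brightest probe differed little, at 3.52 on the control, 3.38 on the diabetic and 3.36 on the combination array, so the averages rest on dimmer probes. None of the 7 genes was 2-fold apart for metformin against diabetic.

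Other genes known to cycle in mouse liver were also read. Of 14 measured on combination against diabetic, 12 lay above 0, 4 were at least 2-fold higher and none lower, where 3.98% of all genes were higher, and the median was 0.50 beside 0.04 for all genes. The 4 were Lpin1 (2.17), which makes diacylglycerol and coactivates PPAR-alpha programmes, Cirbp (1.58), a cold-inducible RNA-binding protein gene, Upp2 (1.08), a uridine phosphorylase, and Nr1i3 (1.02), which encodes the xenobiotic receptor CAR. The Upp2 probes read 2.37 and 0.25 on the diabetic and 4.33 and 0.45 on the combination array, so its size differed by probe. Against metformin, 12 of 13 lay above 0 and 4 were at least 2-fold higher, where 2.62% of all genes were: Upp2 (2.02), the ubiquitin protease gene Usp2 (1.25), Nr1i3 (1.05) and Rgs16 (1.04), a G-protein regulator gene. The median was 0.57 beside 0.10 for all genes and 0.42 for the 6 measured hepatocyte markers. The brighter Nr1i3 probe read 3.94 on the diabetic, 3.90 on metformin and 4.58 on the combination array, short of 2-fold in both comparisons. Its dimmer probe read 1.77, 1.75 and 3.17 in the same order. Usp2, an E-box target, read 2.53 on the control, 2.49 on the diabetic, 2.15 on metformin and 3.38 on the combination array, which puts combination highest as for Ciart. Hlf, the other PAR bZIP activator, picked out after its values were seen, read 1.48, 1.89, 1.61 and 1.86 and so was not lowest on metformin.

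Between diabetic and control, 3 of 15 of these genes were at least 2-fold lower and 1 higher, where 5.69% and 5.97% of all genes were. The lower ones were Lonrf3 (-1.65), Lpin1 (-1.55) and Nampt (-1.20), the rate-limiting enzyme gene of NAD salvage, and the higher one was Cirbp (1.09). For metformin against diabetic, Upp2 at -1.14 was the one gene 2-fold apart. Its brightest probe read 2.37 on diabetic and 2.29 on metformin, and the call was lost with the brightest probe, with outliers kept, with normexp and with probes above background on all 4 arrays. Against control, metformin had 4 of 14 lower (Upp2 -2.04, Lonrf3 -1.77, Tfrc -1.43 and Rgs16 -1.02), where 5.72% of all genes were, with Cirbp 1.77 higher. Combination had 2 of 14 lower, Lonrf3 (-1.55) and Tfrc (-1.40), where 5.9% of all genes were, and Cirbp 2.67 higher, where 4.6% were.

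**Figure D3:**
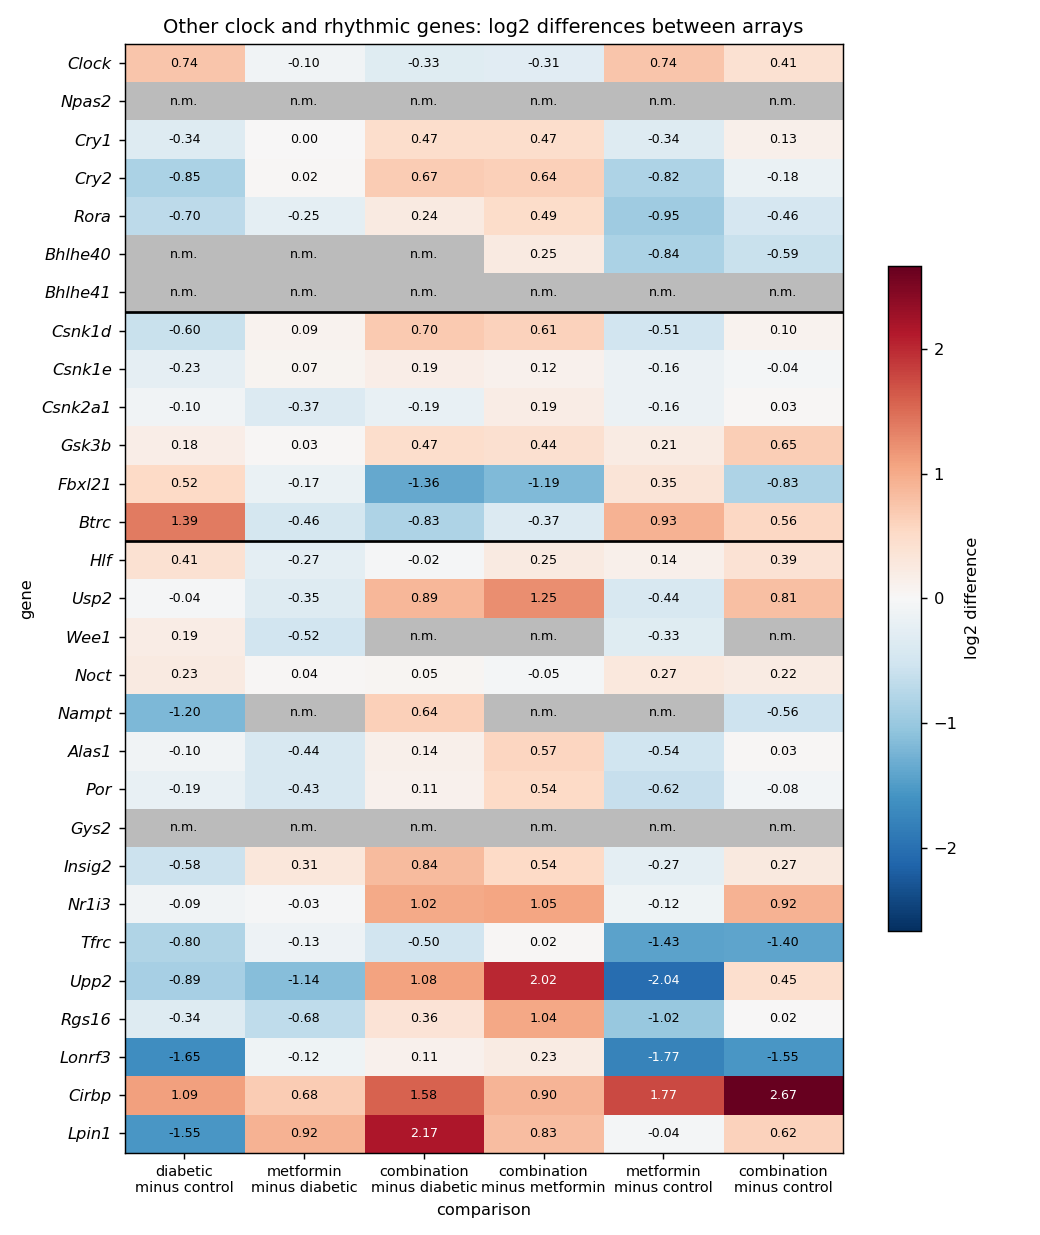
Log2 differences (colour and printed value) of other clock and rhythmic genes in the 6 comparisons, with lines between the core loop, the kinase and ligase, and the rhythmic output lists. Grey cells marked n.m. had no probe that was above background and free of outlier marks on both arrays. For combination against diabetic, 12 of 14 measured rhythmic output genes lie above 0.

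Cirbp and Per2 were read beside heat shock genes, since in mouse cells Per2 is known to answer to heat and Cirbp to cold. Cirbp read 0.74 on the control, 2.04 on the diabetic, 2.96 on metformin and 3.54 on the combination array, and its second probe had the same order. Of 7 heat shock genes measured against control, 7 were lower on each other array, with medians of -0.44 on diabetic, -1.92 on metformin and -2.24 on combination, beside -0.11, -0.19 and -0.07 for all genes. Hspa1a, the inducible HSP70 gene, read 3.05, 2.96, -0.11 and -2.02. The bright Per2 probe followed the order of these medians, at -0.70, -1.28 and -2.01 from control. The dim Per2 probe did not.

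Immediate early genes, which stimuli and tissue handling induce within minutes, had another order. All 11 were lower on the diabetic than on the control array, 6 of them past 2-fold, where 5.69% of all genes were, and their median was -1.07 beside -0.11. On metformin against diabetic 8 of 11 were at least 2-fold higher, where 8.82% of all genes were, and the median was 1.62 beside -0.11. In that comparison 6 of 6 lymphocyte and 5 of 6 stellate and fibroblast markers were at least 2-fold higher as well. On combination against metformin 6 immediate early genes were at least 2-fold lower, where 8.72% of all genes were. Per1, itself quickly induced, differed by -0.06 between metformin and diabetic, where Egr1 differed by 2.82 and Fos by 2.19. Whether heat shock or immediate early genes bear on the Per genes was not tested.

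**Figure D4:**
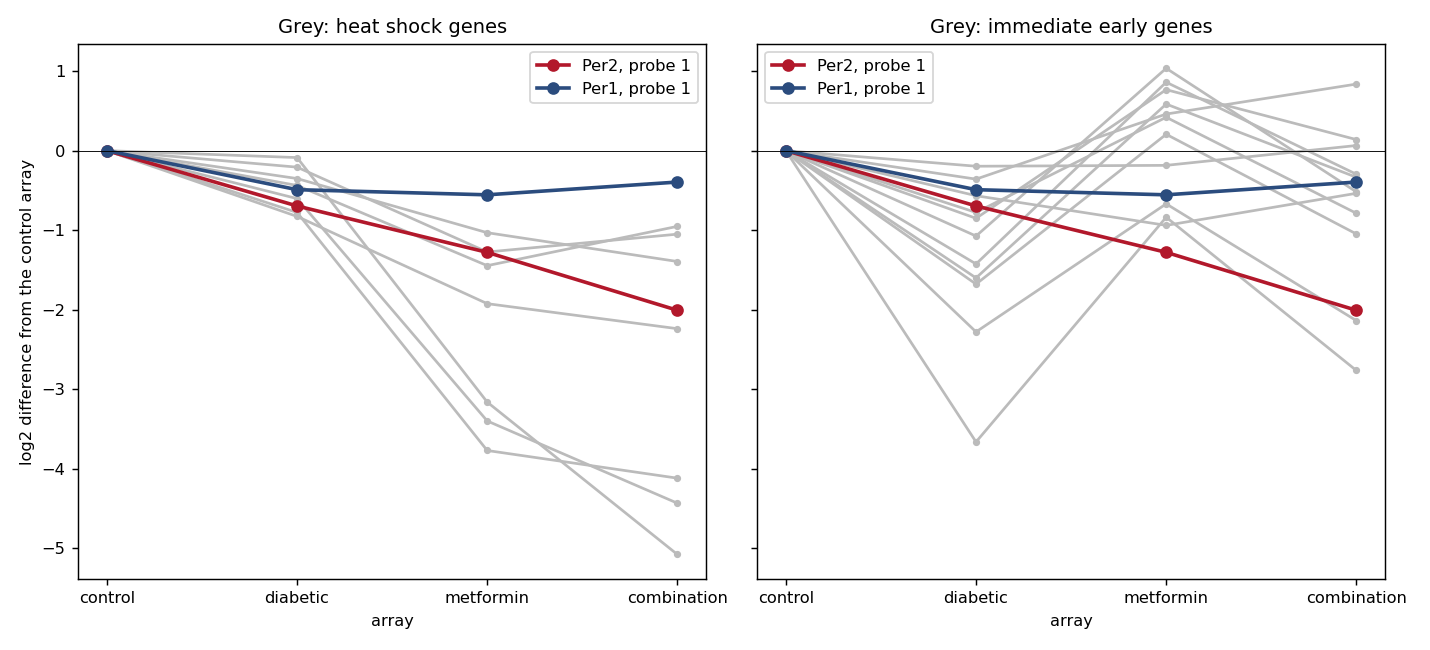
Log2 difference from the control array of the brightest Per1 and Per2 probes (coloured) beside 7 heat shock genes (left, grey) and 11 immediate early genes (right, grey) on the 4 arrays. Per2 ends at -2.01 on the combination array, and Per1 stays between -0.56 and -0.39 on the arrays other than control.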

How the data were processed

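Scanner files of 4 arrays were used. Per the file headers, the authors' intensity values came from Feature Extraction 11.5.1.1 with a red-channel 1-colour protocol on an mm9 grid, whereas version 10.7 is the one given by the submitters' processing notes. The intensity analysed was the deposited processed signal, which the software had corrected for background. The deposited value table holds the authors' log2 values, which correlated with the log2 processed signals at 0.999 to 1.00 with a median of 7.85 on every array. Per the labels' protocols it was normalized in GeneSpring, by a method not given in the sources used here.

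Spots flagged as non-uniform or population outliers were dropped: 2.18% to 5.35% of 59305 an array and 6.31% to 14.5% of those above the 75th percentile. No spot was saturated. Because the flags were uneven, log2 signals were scaled to each array's 75th percentile over the 51780 probes unflagged on all arrays, a signal of 1159 to 1649. A probe was above background where at least 50% of its spots were so marked. Accessions were matched to RefSeq symbols of GRCm38.p6 (33767 probes, 59.7%). Probe differences were averaged per gene, over probes above background on both arrays. For a bound, the dim side was its own value or the lowest signal above background, whichever was higher. The number of arrays limits the precision. Python 3.11.15, R 4.3.3 and limma 3.58.1 (normexp) were used, and the gene differences were tested on simulated data. Alternatives were other scalings, outliers kept, normexp with offset 50 on the median signals (the planned mean signals are not among the columns), the authors' table, filters on dim probes and probe summaries.

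The members and lists were chosen with earlier results of these data known. All 10 members were named. Of each list, the genes at least 2-fold apart and up to 4 others furthest from 0 were named, and the 5 genes nearest in profile to Arntl and to Dbp with Nr1d1. The Tf entry of the hepatocyte list matched no symbol. Some list genes count in the list totals but are not reported here.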

Additional observations from a re-analysis of the deposited data

How the results depend on the processing

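Of 58 member differences, 15 were at least 2-fold, and 9 of these stayed so under each of the 11 alternatives that gave a value. None of the 15 changed sign under them. Of all genes, 2.62% to 8.82% were at least 2-fold higher in a comparison and 3.54% to 8.72% lower. The comparisons share arrays, so the 58 differences are not independent. Arntl for combination against diabetic fell short of 2-fold with normexp, at -0.91. Without a filter on background the genes at least 2-fold apart were 3229, 3511, 2513, 3350, 4276 and 3097 for diabetic against control, metformin against diabetic, combination against diabetic, combination against metformin, metformin against control and combination against control, in place of 1572, 1718, 1379, 1629, 1866 and 1454. The added genes include those below background. Members 2-fold apart went from 2 to 1 for diabetic against control when only probes seen above background on all 4 arrays were used, because Arntl then had no value. For metformin against diabetic they went from 1 to 2 without a filter on background. For combination against diabetic they went from 2 to 4 with each array's own percentile, which added Per2 and Nfil3, and to 1 with normexp or with probes above background on all 4 arrays. For combination against metformin they went from 4 to 2 with each array's own percentile and with normexp. That percentile moved the median of all genes by more than 0.1, to -0.20 for combination against diabetic and -0.19 for combination against metformin. It did so against control as well, to 0.01 for diabetic, -0.01 for metformin and -0.19 for combination.

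Counts of the 31 other clock genes were less stable. They went from 5 to 3 for diabetic against control with normexp or probes above background on all 4 arrays. For metformin against diabetic, 1 became 2 with the percentile over probes above background and with median centring, and 0 with outliers kept, normexp, probes above background on all 4 arrays or the brightest probe. For combination against metformin, 5 became 2 with each array's own percentile and 3 with the percentile over probes above background, quantile normalization, normexp or the authors' table. For combination against control, 3 became 5 with the brightest probe. Beyond what these settings do by construction, the cause was not tested. No paired analysis was possible because each group has 1 array. Depth has no meaning for these arrays, and signal over background limits the dimmer Arntl, Per2, Per3 and Tef probes.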

Other observations

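Genes that glucocorticoids induce in mouse tissues, a hormone signal that also reaches Per1, were lower on the diabetic than on the control array in 6 of 6 cases, none by 2-fold, with a median of -0.41 beside -0.11 for all genes. The hepatocyte markers were lower in 7 of 7 cases there, with a median of -0.40. Fkbp5 at -0.84 and Mt2, a metallothionein gene, at -0.66 were furthest. The brighter Fkbp5 probe read 3.68 on the control and 3.38 on the diabetic array and the dimmer 0.82 and -0.55, so its size differed by probe. On combination against diabetic 5 of 7 lay above 0, with Sgk1, a kinase gene, at 1.56 and Fkbp5 at 0.92. Per1 differed by -0.49 and 0.10 in the same comparisons.

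By distance between profiles over the 4 arrays, each centred on its own mean, the genes nearest to the average of Dbp and Nr1d1 among 11656 genes were Hgd (0.06), Zcchc24 (0.06), Panx2 (0.07), Tssk5 (0.08) and Izumo1r (0.08). Hgd encodes homogentisate dioxygenase, an enzyme of tyrosine breakdown in hepatocytes. With the flagged Arntl spot kept, a choice made after seeing the data, the genes nearest to Arntl were Slpi (0.12), Dppa5a (0.19), Capg (0.25), Insl6 (0.37) and Scamp5 (0.41). None of these belongs to the clock lists, and with 4 arrays many genes share a profile.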
